A study of Homo sapiens with 8 samples.

Results

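The genes described here encode carriers that move amino acids, and in some cases osmolytes or neurotransmitters, across cell membranes. They were taken by name: every probe set of the expression table that was paired with 1 gene symbol starting with SLC1A, SLC3A, SLC6A, SLC7A, SLC16A10, SLC36A, SLC38A or SLC43A. This gave 58 probe sets for 58 genes, of 19816 probe sets in all and of 17845 genes tested. All but SLC7A6OS are carriers or their relatives. SLC7A6OS was taken only because its symbol starts like that of its neighbour SLC7A6, which it overlaps, and it encodes no carrier. A further 2 probe sets are shared with other genes and were not counted: SLC43A3 with PRG2, and the creatine carrier SLC6A8 with its pseudogenes. SLC3A2 is not analysed here.

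RNA came from HepG2, an established line grown from a human hepatocellular tumour, and was measured on Affymetrix Human Gene 1.0 ST arrays. Cells received the solvent DMSO alone (3 arrays), JQ1 at 500 nM (2 arrays) or RVX-208 at 5000 nM (3 arrays), and all were harvested after 4 h. All groups carried DMSO at 0.1% and were grown in medium supplemented with non-essential amino acids, glutamine, vitamins and serum, so no group was deprived of amino acids. JQ1 blocks both bromodomains of the BET proteins, readers of acetylated histones, while RVX-208 binds preferentially to the second of them. The comparisons ask how each inhibitor changed the RNA of these carriers. The study design mentions another JQ1 sample, which is not analysed here, and HepG2 is a single line, so the values speak for that line only. Separate cultures are not named for the replicates, and p-values then measure the spread between these samples, which may be technical.

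Amino acid carriers work as uniporters, as exchangers that trade one amino acid for another, or as symporters that use the sodium gradient. The sodium-coupled carriers load the cell with small neutral amino acids such as glutamine, and the exchangers of SLC7, which need a heavy chain of SLC3 to reach the membrane, spend that load to bring in leucine, arginine or cystine. Several of these genes are known targets of ATF4, the transcription factor that is made when amino acids run short. In liver, amino acid import feeds protein synthesis, the urea cycle and the synthesis of glutathione.

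The line was recognisable in its RNA: of 10 listed hepatocyte markers 9 were measured and 8 lay in the top quartile of all genes, with ALB, AFP and APOB among the highest. All 6 neuronal markers and 5 of 6 fibroblast markers lay below the median gene. Of 5 blood markers 4 lay there too, and LYZ was the exception, at a log2 signal of 13.19 to 13.28 as group means. Array medians ran from 7.26 to 7.31, replicates correlated at r = 0.9962 to 0.9973 across genes, and no detection calls were used. As a check of the treatments, HEXIM1, a BET inhibition marker, was higher by 1.49 ± 0.06 (log2 fold change ± SE) with JQ1 and by 0.48 ± 0.05 with RVX-208 in limma's moderated test (adjusted p = 9.942e-06 and 0.00677).

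The signal of the carriers spanned the whole range of the arrays. Of the 58 genes, 15 were in the lowest quartile of all genes by mean log2 signal over the 8 arrays, 15 in the second, 13 in the third and 15 in the top quartile, which starts at 9.05. The 15 of the top quartile were SLC38A2 (12.35), SLC7A5 (11.97), SLC38A1 (11.33), SLC7A2 (10.65), SLC43A1 (10.60), SLC1A4 (10.39), SLC38A3 (10.34), SLC7A6 (10.18), SLC6A11 (9.99), SLC7A1 (9.85), SLC38A5 (9.68), SLC16A10 (9.57), SLC38A10 (9.53), SLC6A6 (9.44) and SLC7A11 (9.14). Probe sets differ in affinity, so these levels place each gene against all others and give no order between neighbours. Another 19 carriers had a mean below 6, close to the lowest quartile's limit of 5.66, where fold changes are compressed.

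After 4 h of JQ1 the RNA of 19 of these 58 genes was called lower and that of 2 higher, where called means an adjusted p under 0.05 over all 17845 genes. The share called was 36.2% of the 58 genes against 22.8% of all genes tested, and the share called lower was 32.8% against 12%. Called higher were 3.45% against 10.7% of all genes. The median log2 fold change was -0.16 over the 58 genes and -0.04 over all genes. JQ1 and DMSO arrays did not overlap for 39 of the 58 genes (67.2%) against 50.4% of all genes. With a mean of at least 6, 18 of 39 genes of this set were called (46.2% against 29.6% of all such genes). The largest falls were those of the cystine importer SLC7A11, the betaine carrier SLC6A12 and the broad-range carrier SLC6A14, followed by SLC7A6, SLC38A1 and SLC7A1.

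**Figure D1:**
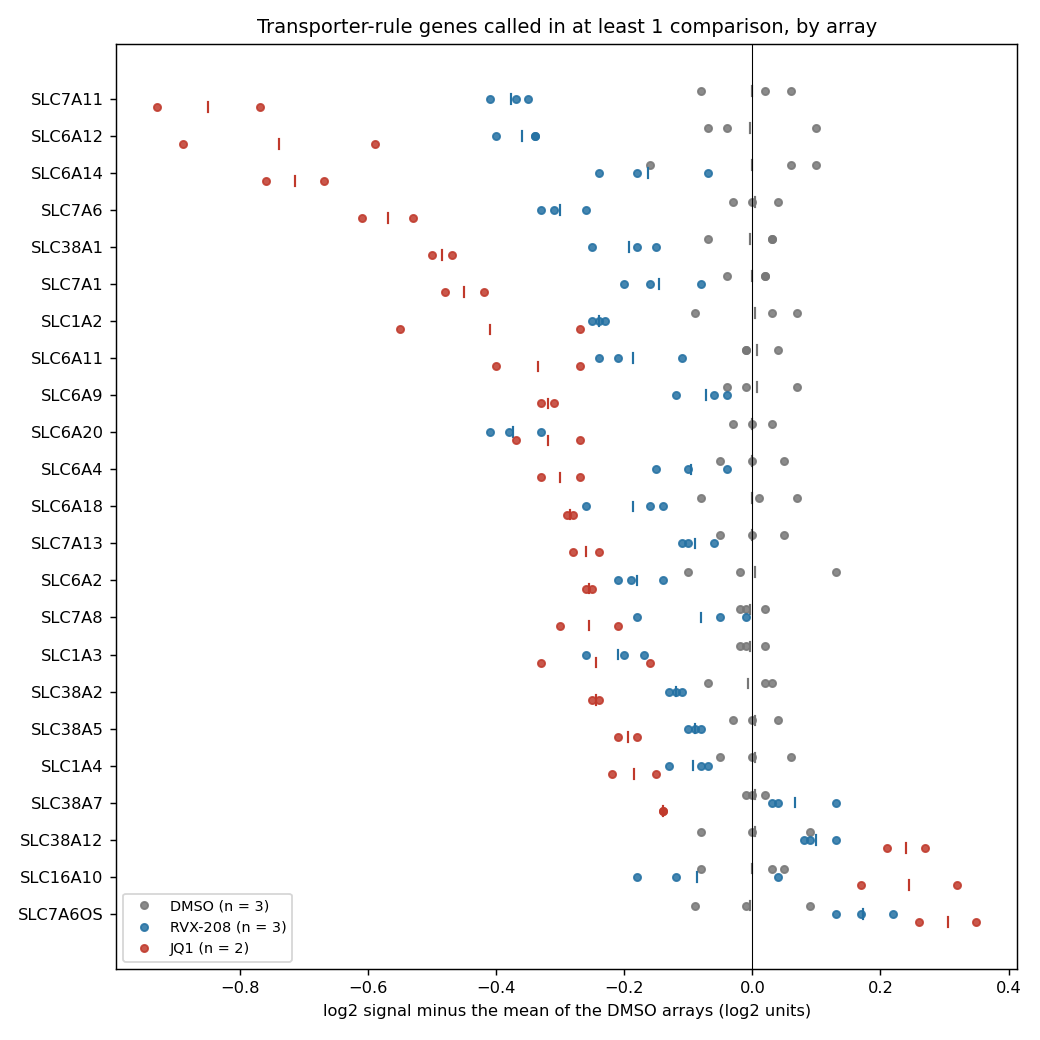
Log2 signal minus the gene's DMSO mean (x axis, log2 units) in each of the 8 arrays for the 23 genes called in at least 1 of the 3 comparisons, with points for arrays and ticks for group means. For each of the 19 genes called lower with JQ1, both JQ1 arrays lie below all 3 DMSO arrays, and the RVX-208 arrays of SLC6A20 lie as low as its JQ1 arrays.

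The call of 8 genes with JQ1 held in 7 other settings of the analysis and in all 8 fits that left out 1 array: SLC7A11, SLC7A6, SLC7A1, SLC38A1, SLC6A12, SLC6A14, SLC6A9 and SLC6A20. The other 13 calls depended on at least 1 array or setting, and they are given with the arrays that decide them. Without JQ1 replicate 1, which leaves 1 JQ1 array, the median log2 fold change was -0.148 over the 58 genes and -0.049 over all genes. Without JQ1 replicate 2 it was -0.164 and -0.025. Centring each array on housekeeping genes moved the median of all genes from -0.040 to -0.208. Of the 58 genes, 41 were then called lower and 0 higher, at a background of 47.2% of all genes called.

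Among the heteromeric exchangers of SLC7, taken with the SLC3 heavy chain SLC3A1, 4 of 9 genes fell with JQ1 (44.4% against 12% of all genes) and 0 rose. SLC7A11 (chromosome 4) encodes xCT, which imports cystine for glutathione synthesis and exports glutamate. Its log2 signal was 9.51, 9.55 and 9.41 in the DMSO arrays, 8.56 and 8.72 with JQ1, and 9.08, 9.12 and 9.14 with RVX-208. The 3 groups did not overlap, and the RVX-208 arrays lay between the others. The fall with JQ1 was 0.85 ± 0.07 on the log2 scale, to 55.3% of the DMSO signal (95% confidence interval of the log2 fold change -1.01 to -0.70, adjusted p = 1.041e-04). SLC7A6 (chromosome 16) encodes y+LAT2, which exports arginine in exchange for glutamine and sodium. Its arrays read 10.43, 10.47 and 10.40 with DMSO, 9.82 and 9.90 with JQ1, and 10.12, 10.17 and 10.10 with RVX-208. Again the groups were separate, with both inhibitors below DMSO, and JQ1 took the signal to 67.2% of DMSO (log2 fold change -0.57 ± 0.05, adjusted p = 2.301e-04).

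The remaining falls in this class came from 2 dim genes. SLC7A13, an aspartate and glutamate carrier known from kidney, fell by 0.26 ± 0.05 at a DMSO signal of 3.46 ± 0.05 (SD, n = 3), and SLC7A8, the exchanger LAT2 for neutral amino acids, fell by 0.25 ± 0.06 at 5.47 ± 0.02. Both lay in the lowest quartile of all genes. The first call was lost without JQ1 replicate 1 (adjusted p = 0.0623), and the second without DMSO replicate 2 (0.0535), DMSO replicate 3 (0.0567) or JQ1 replicate 1 (0.138). Both were also lost with an intensity trend and robust eBayes (0.106 and 0.0743), and SLC7A8 after cyclic loess (0.057). Among genes with a mean below 6 the background of calls with JQ1 was 6.99%, and 3 of the 19 carriers there were called (15.8%). SLC7A5 encodes LAT1, the main importer of leucine and other large neutral amino acids in tumour cells. Its values were 11.97, 12.04 and 12.01 with DMSO, 11.86 and 11.95 with JQ1, and 11.96, 11.97 and 11.96 with RVX-208. The JQ1 arrays lay below DMSO by less than the test could call (log2 fold change -0.10, interval -0.22 to 0.02, adjusted p = 0.206). SLC7A7, SLC7A9, SLC7A10 and SLC3A1 were not called, with JQ1 log2 fold changes from -0.18 to 0.04.

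Of 5 genes for cationic amino acid carriers and their relatives, 1 was called with JQ1, SLC7A1 (20% against 22.8% of all genes). SLC7A1 (chromosome 13) encodes CAT1, a carrier of arginine, lysine and ornithine found in most cells. The DMSO arrays read 10.04, 9.98 and 10.04, the JQ1 arrays 9.54 and 9.60, and the RVX-208 arrays 9.94, 9.86 and 9.82. Both JQ1 arrays were below all others, and the RVX-208 arrays were just below DMSO. The fall with JQ1 was 0.45 ± 0.06, to 73.3% of DMSO (adjusted p = 9.468e-04). SLC7A2, whose product CAT2 carries the same amino acids and has a liver form, read 10.68 ± 0.06 with DMSO (SD, n = 3) and 10.59 ± 0.01 with JQ1 (n = 2), and its log2 fold change of -0.09 was not called (interval -0.22 to 0.05, adjusted p = 0.344). SLC7A3, SLC7A4 and SLC7A14 had means below the median gene and were not called.

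In SLC1, which holds the glutamate carriers and the neutral exchangers ASCT1 and ASCT2, 3 of 7 genes fell with JQ1 (42.9% against 12% of all genes) and 0 rose, though the calls of SLC1A3 and SLC1A4 were each lost in several fits. SLC1A2 encodes the glutamate carrier EAAT2. Its values were 7.26, 7.30 and 7.14 with DMSO, 6.68 and 6.96 with JQ1, and 7.0, 6.99 and 6.98 with RVX-208. The fall with JQ1 was 0.42 ± 0.09 (adjusted p = 0.00995), and it was lost without JQ1 replicate 1, the lower of both JQ1 arrays (0.0668). SLC1A3, for the glutamate carrier EAAT1, fell by 0.24 ± 0.06 at a dim 4.99 ± 0.02 in DMSO. Its call was lost without any of the DMSO arrays (0.0537 to 0.0642), without JQ1 replicate 1 (0.174), with an intensity trend and robust eBayes (0.104), after cyclic loess (0.115) and with only the arrays of both groups (0.0597). SLC1A4, the bright gene for ASCT1, which exchanges alanine, serine and cysteine, fell by 0.19 ± 0.06 (adjusted p = 0.0405), a call that held only in the fit without DMSO replicate 3 and was lost on leaving out any other array (0.0589 to 0.196). SLC1A5, for the glutamine exchanger ASCT2, read 7.76 and 7.37 in the JQ1 arrays, on both sides of the DMSO arrays at 7.44, 7.48 and 7.5, and was not called (0.09 ± 0.10). SLC1A1, SLC1A6 and SLC1A7 were not called either.

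The SLC38 carriers move glutamine, alanine and other small neutral amino acids with sodium, and 3 of 12 fell with JQ1 and 1 rose (25% and 8.33%, against 12% and 10.7% of all genes). SLC38A1 (chromosome 12) encodes SNAT1, a glutamine importer. Its log2 signal was 11.56, 11.56 and 11.46 with DMSO, 11.03 and 11.06 with JQ1, and 11.28, 11.38 and 11.35 with RVX-208. The groups were separate, in the order DMSO, RVX-208, JQ1. JQ1 took the signal to 71.5% of DMSO (log2 fold change -0.48 ± 0.06, adjusted p = 6.138e-04). SLC38A2, next to it on chromosome 12, encodes SNAT2, which is induced by amino acid starvation in many cells. Its arrays read 12.49, 12.48 and 12.39 with DMSO, 12.21 and 12.22 with JQ1, and 12.35, 12.34 and 12.33 with RVX-208. Its fall with JQ1 was smaller, 0.24 ± 0.05 (adjusted p = 0.0126), and was lost without JQ1 replicate 1 (0.0689) or 2 (0.0579).

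SLC38A5, for the glutamine carrier SNAT5, fell by 0.20 ± 0.05 (adjusted p = 0.023), a call lost without DMSO replicate 1 or 2 or either JQ1 array (0.0559 to 0.113). SLC38A12, known earlier as TMEM104, rose by 0.24 ± 0.06 (adjusted p = 0.026). Its call was lost without DMSO replicate 2 (0.0628), DMSO replicate 3 (0.0626) or either JQ1 array (0.0716 and 0.136), and with housekeeping centring (log2 fold change 0.07, adjusted p = 0.421). SLC38A3, for the liver system N carrier SNAT3, and SLC38A10 were bright and not called (log2 fold change with JQ1 -0.15 ± 0.07 and 0.10 ± 0.07). SLC38A11 read 6.37, 6.03 and 6.16 with DMSO, 5.91 and 5.50 with JQ1, and 5.84, 5.48 and 5.72 with RVX-208, and its log2 fold changes of -0.48 ± 0.15 and -0.51 ± 0.13 missed the threshold (adjusted p = 0.0504 and 0.0606). SLC38A9, the lysosomal arginine sensor of mTORC1, read 8.70 ± 0.08 with DMSO and had a log2 fold change of 0.02 with JQ1. SLC38A4, SLC38A6, SLC38A7 and SLC38A8 were not called.

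None of the 7 genes of SLC36, SLC43 and SLC16A10 was called with JQ1 in limma's test, and SLC16A10 and SLC43A1 were bright. SLC43A1 encodes LAT3, a uniporter of branched-chain amino acids. It read 10.65, 10.66 and 10.62 with DMSO, 10.46 and 10.5 with JQ1, and 10.71, 10.63 and 10.54 with RVX-208. Both JQ1 arrays lay below all others, and the difference of -0.17 ± 0.06 was not called (adjusted p = 0.0866). SLC16A10 encodes TAT1, a uniporter of aromatic amino acids. It read 9.59, 9.57 and 9.46 with DMSO, 9.71 and 9.86 with JQ1, and 9.58, 9.36 and 9.42 with RVX-208, and lay above DMSO with JQ1 by 0.25 ± 0.08 (adjusted p = 0.0615). At an unadjusted p under 0.05, 2 of the 7 genes passed with JQ1, against 6329 of all 17845 genes. After adjustment 22.8% of all genes were called.

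In SLC6, which has the most genes of these classes, 8 of 17 fell with JQ1 and 0 rose. The share that fell was 47.1%, against 44.4% of the heteromeric exchangers, 42.9% of SLC1 and 12% of all genes. SLC6A12 (chromosome 12) encodes BGT1, which carries betaine and GABA and serves as an osmolyte carrier in liver and kidney. Its arrays read 7.53, 7.5 and 7.67 with DMSO, 6.68 and 6.98 with JQ1, and 7.23, 7.23 and 7.17 with RVX-208. The groups were separate, and the JQ1 arrays stood further apart than those of the other groups. JQ1 took the signal to 60.1% of DMSO (log2 fold change -0.73 ± 0.09, adjusted p = 7.869e-04). SLC6A14 (chromosome X) encodes ATB0,+, which accepts neutral and cationic amino acids. It read 8.14, 8.18 and 7.92 with DMSO, 7.32 and 7.41 with JQ1, and 7.90, 7.84 and 8.01 with RVX-208. JQ1 arrays were clearly apart while RVX-208 and DMSO arrays overlapped, and the JQ1 signal was 60.7% of DMSO (log2 fold change -0.72 ± 0.09, adjusted p = 7.378e-04).

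SLC6A9 encodes the glycine carrier GlyT1. It read 8.07, 8.10 and 8.18 with DMSO, 7.80 and 7.78 with JQ1, and 8.07, 8.05 and 7.99 with RVX-208. Its fall with JQ1 was 0.33 ± 0.06 (adjusted p = 0.00379). SLC6A20, which carries proline and other imino acids, read 6.28, 6.31 and 6.25 with DMSO, 6.01 and 5.91 with JQ1, and 5.95, 5.90 and 5.87 with RVX-208. This gene was low under both inhibitors, in contrast to SLC6A9, and fell by 0.32 ± 0.06 with JQ1 (adjusted p = 0.00391). SLC6A11, for the GABA carrier GAT3, stood at 10.14 ± 0.03 in DMSO (SD, n = 3) and fell by 0.34 ± 0.06 (adjusted p = 0.00598, lost without JQ1 replicate 1 at 0.0532).

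The last 3 falls of this class were in genes for the serotonin carrier SLC6A4 (0.30 ± 0.06), the kidney neutral amino acid carrier SLC6A18 (0.28 ± 0.06) and the noradrenaline carrier SLC6A2 (0.26 ± 0.07). SLC6A4 lost its call without JQ1 replicate 2 (adjusted p = 0.0615), and SLC6A18 without JQ1 replicate 1 (0.0693) or 2 (0.0744). SLC6A2 kept its call only without DMSO replicate 2 or RVX-208 replicate 1, and lost it without any other array (0.0512 to 0.135) and after cyclic loess (0.123). SLC6A6, for the taurine carrier, was bright at 9.42 ± 0.02 in DMSO and was not called with JQ1 (0.09 ± 0.06, interval -0.06 to 0.24). The other 8 genes of the class, SLC6A3, SLC6A5, SLC6A7, SLC6A13, SLC6A15, SLC6A16, SLC6A17 and SLC6A19, had JQ1 log2 fold changes from -0.30 to -0.01 and were not called.

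**Figure D2:**
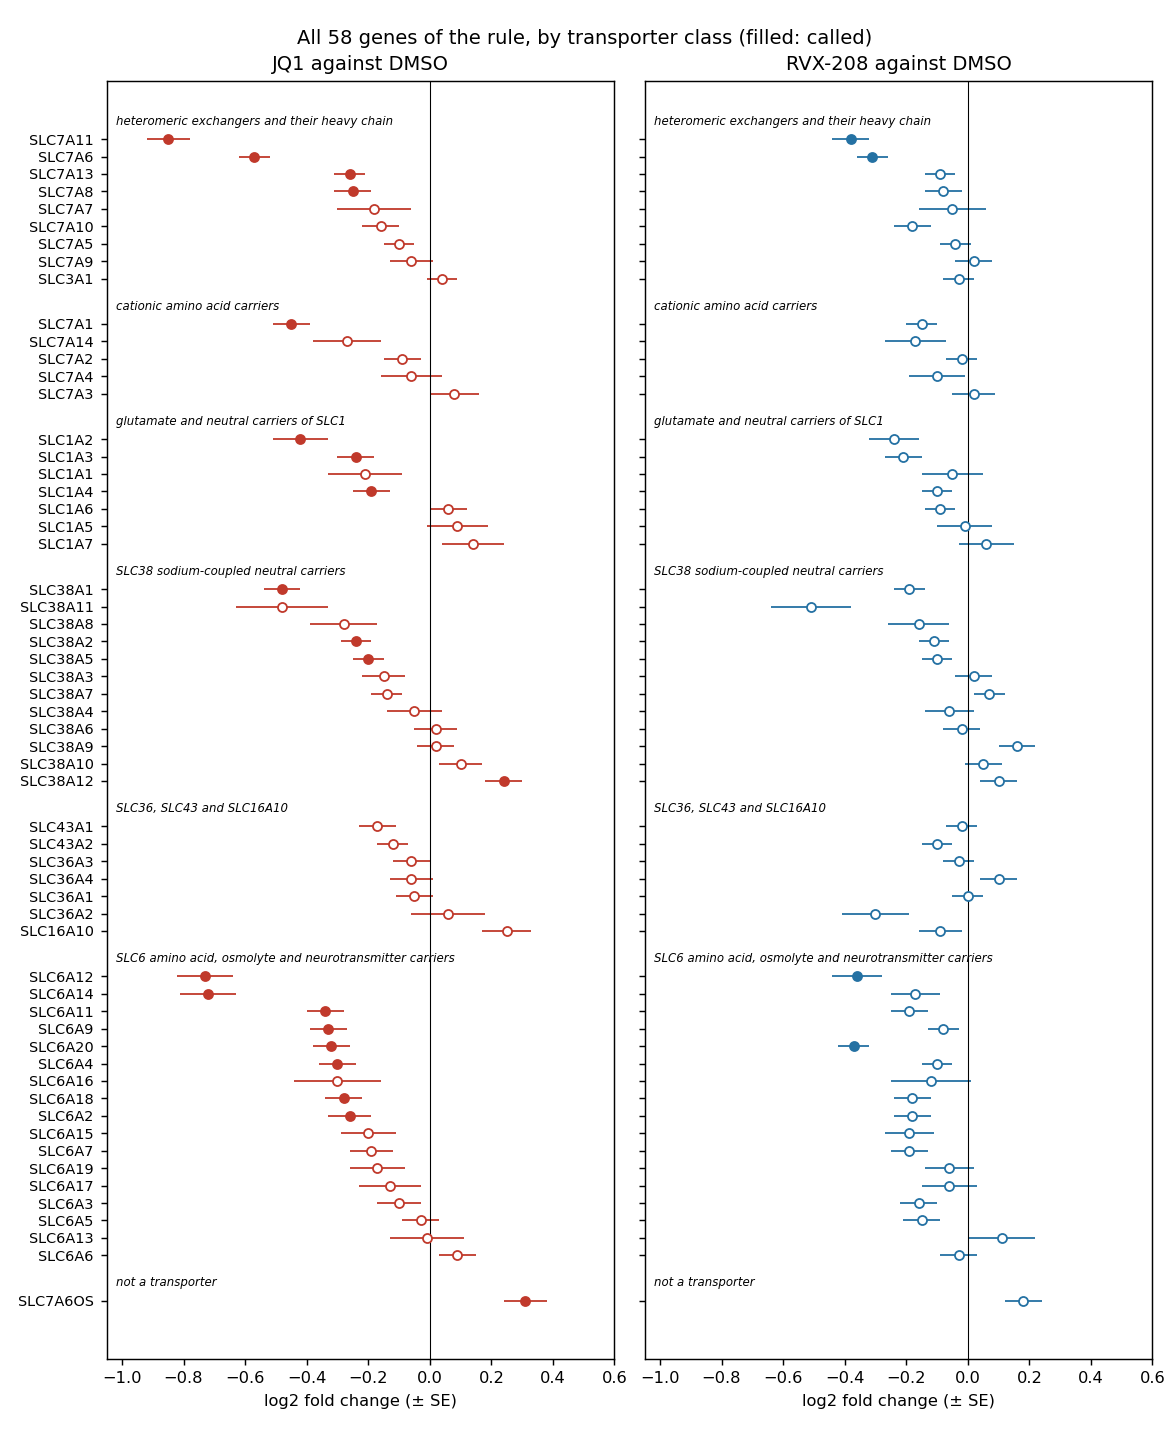
Log2 fold change (x axis, ± SE) of all 58 genes with JQ1 (left) and RVX-208 (right) against DMSO, grouped by carrier class, with filled points for genes called at an adjusted p under 0.05. The 19 falls with JQ1 are spread over 5 of the 6 carrier classes, none lies in SLC36, SLC43 and SLC16A10, and the 4 falls with RVX-208 are SLC7A11, SLC7A6, SLC6A12 and SLC6A20.

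Of 7 pairs of these genes that lie next to each other, some had unlike values and some close ones. SLC6A12 and SLC6A13, the GABA carrier GAT2, lie next to each other on chromosome 12 with no protein-coding gene between them, and with JQ1 their log2 fold changes were -0.73 and -0.01. SLC38A1, SLC38A2 and SLC38A4 follow each other on the same chromosome, with -0.48, -0.24 and -0.05. SLC7A6 and SLC7A6OS overlap on chromosome 16 in the RefSeq annotation. SLC7A6OS read 8.48, 8.58 and 8.40 with DMSO, 8.84 and 8.75 with JQ1, and 8.66, 8.62 and 8.71 with RVX-208, so that it rose with JQ1 by 0.31 ± 0.07 (adjusted p = 0.0127) where SLC7A6 fell. Its call was lost without JQ1 replicate 1 (0.0915) and with housekeeping centring (log2 fold change 0.14, adjusted p = 0.133). SLC6A19 and SLC6A18, neighbours on chromosome 5, had -0.17 and -0.28, with JQ1 arrays wholly below DMSO for both, and SLC36A3, SLC36A2 and SLC36A1, on the same chromosome, had -0.06, 0.06 and -0.05 with none called. Differences between neighbours are given as values with no test.

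With RVX-208, 4 of the 58 genes were called, all lower, which is 6.9% against a background of 6.28% of all genes called in either direction and 3.22% called lower. None rose, against 3.06% of all genes, and the share called was close to that of all genes. RVX-208 and DMSO arrays did not overlap for 26 of the 58 genes (44.8%) against 34.1% of all genes. The median log2 fold change was -0.09 over the 58 genes and -0.02 over all genes. The 4 genes were SLC7A11 (-0.38 ± 0.06, adjusted p = 0.0202), SLC6A20 (-0.37 ± 0.05, 0.0144), SLC6A12 (-0.36 ± 0.08, 0.0427) and SLC7A6 (-0.31 ± 0.05, 0.0201). All 4 were also called lower with JQ1, and both comparisons share the DMSO arrays. At an unadjusted p under 0.05, 21 of the 58 genes passed, against 4987 of all 17845 genes.

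Each of the 4 calls with RVX-208 rested on single arrays. Without RVX-208 replicate 3 none of them held (adjusted p = 0.0673 for SLC6A20, 0.0772 for SLC7A11, 0.08 for SLC7A6 and 0.137 for SLC6A12), and at that setting 0.291% of all genes were called. SLC6A20 was lost on leaving out that array only. SLC7A11 was lost also without DMSO replicate 2 (0.0536), RVX-208 replicate 1 (0.0529) or RVX-208 replicate 2 (0.0573). SLC7A6 was lost without those 3 arrays (0.0515 to 0.0536) and DMSO replicate 3 (0.0549), and SLC6A12 held only when a JQ1 array was left out and was lost after cyclic loess (0.0692). Among the bright carriers not called, SLC38A1 lay at -0.19 ± 0.05 (interval -0.31 to -0.07, adjusted p = 0.0626), SLC6A11 at -0.19 ± 0.06 (0.0787), SLC7A1 at -0.15 ± 0.05 (0.111) and SLC38A2 at -0.11 ± 0.05 (0.167). SLC7A5 differed from DMSO by -0.04 (interval -0.15 to 0.07).

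JQ1 at 500 nM and RVX-208 at 5000 nM were also set against each other, at doses that differ and with no DMSO array in the contrast. Of the 58 genes, 8 were lower with JQ1 and 1 was higher, 15.5% against a background of 10.9% of all genes. The shares lower and higher were 13.8% and 1.72%, against 6.78% and 4.16%, and the arrays of the inhibitors did not overlap for 37 of the 58 genes (63.8% against 42.8%). Lower with JQ1 were SLC6A14 (-0.55 ± 0.09, adjusted p = 0.00604), SLC7A11 (-0.48 ± 0.07, 0.00381), SLC6A12 (-0.38 ± 0.09, 0.0328), SLC7A1 (-0.30 ± 0.06, 0.014), SLC38A1 (-0.29 ± 0.06, 0.0142), SLC7A6 (-0.27 ± 0.05, 0.0173), SLC6A9 (-0.25 ± 0.06, 0.0252) and SLC38A7 (-0.21 ± 0.05, 0.0456). SLC38A7, a lysosomal glutamine exporter, read 8.45, 8.44 and 8.47 with DMSO, 8.31 and 8.31 with JQ1, and 8.49, 8.48 and 8.58 with RVX-208. The aromatic amino acid uniporter SLC16A10 was higher with JQ1 than with RVX-208 by 0.34 ± 0.08 (adjusted p = 0.0344). Neither of these genes was called against DMSO.

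For SLC6A20, called with both inhibitors against DMSO, the difference between them was 0.05 (interval -0.08 to 0.18, adjusted p = 0.638). For SLC38A2 the difference was -0.13 (interval -0.25 to -0.01, adjusted p = 0.183), and for SLC6A11 it was -0.15 (interval -0.29 to 0.00, adjusted p = 0.202). Only the SLC7A11 difference held in every setting and with any array left out. The call of SLC6A14 was lost only without JQ1 replicate 1, which leaves 1 JQ1 array (log2 fold change -0.51). SLC7A1 and SLC38A1 were lost without either JQ1 array (0.0515 to 0.095) and SLC38A1 also without RVX-208 replicate 2 (0.0535). SLC7A6 was lost without JQ1 replicate 1 (0.117) or RVX-208 replicate 2 (0.0645). SLC6A12 was lost without JQ1 replicate 1 or any RVX-208 array (0.0674 to 0.188), and SLC6A9 without either JQ1 array or RVX-208 replicate 1 or 2 (0.0754 to 0.117). SLC16A10 was lost without DMSO replicate 2, either JQ1 array, or RVX-208 replicate 2 or 3 (0.0537 to 0.195), and SLC38A7 without any of the 8 arrays (0.0561 to 0.17).

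Promoter windows from RefSeq (GRCh38.p14), 250 bases before to 50 after the transcription start, were at hand for 45 of the 58 genes, in 65 windows. They were searched on both strands for 3 short motifs, and a match is a description of letters, not a binding site. TGATGNAA, the core of the C/EBP-ATF response element through which ATF4 acts, occurred in 5 of the 45 genes (11.1%) against 3.56% of the 13864 tested genes with a window. The E-box CACGTG, bound by MYC and its relatives, occurred in 10 (22.2% against 11%), and TGACNNNGC, the core of the antioxidant response element bound by NRF2, in 6 (13.3% against 18.3%). By window, TGATGNAA occurred in 7.69% of the windows of these genes and in 3.62% of all windows.

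The 5 matches to TGATGNAA are shown with 11 bases on either side, 5′ to 3′ on the strand of the match with the match in capitals, so that the letters around this motif can be compared between these genes.
SLC1A3: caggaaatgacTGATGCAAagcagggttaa
SLC1A4: ccggctggagaTGATGCAAacgggagccgc
SLC1A5: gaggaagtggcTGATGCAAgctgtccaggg
SLC38A1: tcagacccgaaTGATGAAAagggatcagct
SLC7A1: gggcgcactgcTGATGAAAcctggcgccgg
The windows were chr5:36596338-36596637 (+) for SLC1A3, chr2:64989149-64989448 (+) for SLC1A4, chr19:46784765-46785064 (-) for SLC1A5, chr12:46266467-46266766 (-) for SLC38A1 and chr13:29595639-29595938 (-) for SLC7A1. In SLC38A1 the match begins 4 bases before the start site and in SLC7A1 at base 8 after it. In rat, an amino acid response element has been described in the first exon of Slc7a1. With JQ1 the log2 fold changes of the 5 genes in this order were -0.24, -0.19, 0.09, -0.48 and -0.45, and SLC1A5 was the gene not called. Called lower with JQ1 were 32.8% of the 58 genes and 12% of all genes, and a link of the motif to these falls was not tested. The calls of SLC1A3 and SLC1A4 held in 4 and 1 of the 8 fits without 1 array.

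Whole windows are shown for SLC7A6 (chr16:68264276-68264575, + strand) and SLC7A1 (chr13:29595639-29595938, - strand), a pair of SLC7 genes that both fell with JQ1, so that the motifs can be read in their surroundings. Capitals mark matches to TGACNNNGC, 2 in SLC7A6 and 1 in SLC7A1, and to TGATGNAA, 1 in SLC7A1. G and C made up 78.7% and 82% of the bases.
SLC7A6: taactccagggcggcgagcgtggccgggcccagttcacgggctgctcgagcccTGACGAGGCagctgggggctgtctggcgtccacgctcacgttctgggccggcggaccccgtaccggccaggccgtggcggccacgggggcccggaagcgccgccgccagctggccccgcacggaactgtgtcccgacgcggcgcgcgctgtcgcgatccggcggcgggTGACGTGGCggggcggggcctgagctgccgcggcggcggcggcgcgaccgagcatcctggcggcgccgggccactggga
SLC7A1: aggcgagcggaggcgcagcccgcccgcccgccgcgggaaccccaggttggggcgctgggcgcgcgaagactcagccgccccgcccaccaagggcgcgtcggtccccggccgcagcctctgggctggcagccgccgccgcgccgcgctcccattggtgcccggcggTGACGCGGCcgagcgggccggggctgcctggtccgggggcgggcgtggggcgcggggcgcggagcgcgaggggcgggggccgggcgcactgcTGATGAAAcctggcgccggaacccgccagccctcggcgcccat
Of the 10 genes with CACGTG in a window, SLC38A5 and SLC7A8 were called lower with JQ1 (log2 fold change -0.20 and -0.25), calls that were each lost in several fits. The others were not called with JQ1, among them SLC7A5, which also held TGACNNNGC. Of all genes, 22.8% were called with JQ1 and 12% were called lower. MYC itself fell with JQ1 by 0.67 ± 0.06 (adjusted p = 1.629e-04), and a role of MYC in these changes was not tested. For SLC7A11 and SLC6A12 the table of windows gave no entry.

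The gene for ATF4, which acts on many carriers, rose with JQ1. It read 9.10 ± 0.08 with DMSO (SD, n = 3), 9.54 ± 0.08 with JQ1 (n = 2) and 9.34 ± 0.03 with RVX-208 (n = 3), a rise of 0.44 ± 0.06 with JQ1 (adjusted p = 0.00178). With RVX-208 the log2 fold change was 0.24 ± 0.06 and just passed the test (0.0478), a call lost on leaving out any 1 of the 8 arrays (0.056 to 0.138), after cyclic loess (0.0784) and with housekeeping centring (log2 fold change 0.13, adjusted p = 0.151). In a list of 25 genes of the amino acid response, 9 rose and 6 fell with JQ1 (36% and 24%, against 10.7% and 12% of all genes), and their median log2 fold change was 0.01. CTH, which makes cysteine from cystathionine, rose by 0.88 ± 0.07 and the leucine sensor SESN2 by 0.51 ± 0.07. NUPR1, a stress-induced chromatin protein, fell by 0.95 ± 0.08, the secreted glycoprotein STC2 by 0.89 ± 0.08 and TRIB3, a pseudokinase that binds ATF4, by 0.82 ± 0.10. With housekeeping centring, where 47.2% of all genes were called, the list had 4 rises and 10 falls. With RVX-208 4 of the 25 were called (16% against 6.28% of all genes): CTH (0.33 ± 0.06), ATF4 and the mitochondrial enzyme PCK2 (0.20 ± 0.05) rose and NUPR1 fell by 0.41 ± 0.07.

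None of the 18 cytosolic aminoacyl-tRNA synthetases tested, which are also known ATF4 targets in part, was called with either inhibitor in limma's test. Of all genes, 22.8% were called with JQ1 and 6.28% with RVX-208. At an unadjusted p under 0.05, 3 of the 18 passed with JQ1 and 2 with RVX-208, against 6329 and 4987 of all 17845 genes. With housekeeping centring 6 were called lower with JQ1, at a background of 47.2% of all genes called. A list of 26 genes covers mTORC1, the growth-promoting kinase complex at the lysosome, with its amino acid sensors and other regulators such as TSC1 and TSC2. Of these 26, 7 rose and 1 fell with JQ1 (30.8% called against 22.8% of all genes). They included SESN3, a relative of SESN2 (1.12 ± 0.07), the S-adenosylmethionine sensor SAMTOR (0.72 ± 0.10) and the GTPase RRAGC (0.49 ± 0.05), and the fall was that of RHEB, the GTPase that activates the complex (-0.25 ± 0.05). With housekeeping centring, where 47.2% of all genes were called, the count turned to 4 rises and 7 falls. With RVX-208, 3 rose and 0 fell (11.5% called against 6.28% of all genes): SAMTOR (0.46 ± 0.09), RRAGC (0.35 ± 0.05) and SESN3 (0.34 ± 0.07).

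Of 11 cysteine and glutathione genes around SLC7A11, 3 were called with JQ1, a share of 27.3% close to the 22.8% of all genes. SRXN1, which repairs peroxiredoxins (0.66 ± 0.06), and CHAC2, which degrades glutathione (0.33 ± 0.07), rose with JQ1. KEAP1, the adaptor that marks NRF2 for degradation, fell by 0.63 ± 0.06 with JQ1 and read 9.66 ± 0.05 with DMSO, 9.02 ± 0.00 with JQ1 and 9.60 ± 0.07 with RVX-208. With housekeeping centring 1 gene of the list rose and 4 fell, at a background of 47.2% of all genes called. SRXN1 was the only one of the list called with RVX-208 (0.25 ± 0.05, adjusted p = 0.0376). Among 18 genes of amino acid breakdown, 5 were called with JQ1 (27.8% against 22.8% of all genes). CDO1, which oxidises cysteine (0.81 ± 0.07), and the branched-chain ketoacid dehydrogenase subunits DBT (0.35 ± 0.09) and BCKDHB (0.32 ± 0.07) rose with JQ1. The tyrosine aminotransferase TAT fell by 0.66 ± 0.10 and MAT1A, the liver enzyme of S-adenosylmethionine synthesis, by 0.52 ± 0.06. With housekeeping centring 1 gene of the list rose and 7 fell, at a background of 47.2% of all genes called. DBT (0.19, adjusted p = 0.137) and BCKDHB (0.16, 0.118) were then not called. With RVX-208, CDO1 rose (0.33 ± 0.06), and TAT (-0.53 ± 0.09) and MAT1A (-0.26 ± 0.05) fell.

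Of 15 genes of glutamine, glutamate, proline and urea cycle metabolism, 5 were called with JQ1 (33.3% against 22.8% of all genes). OAT, which links ornithine and proline (0.62 ± 0.07), the aspartate aminotransferase GOT1 (0.28 ± 0.06) and the glutamine synthetase GLUL (0.20 ± 0.06) rose with JQ1. NAGS, which makes the activator of the urea cycle (-0.33 ± 0.10), and PYCR1, the last enzyme of proline synthesis (-0.24 ± 0.06), fell. With housekeeping centring 1 gene of the list rose and 6 fell, at a background of 47.2% of all genes called. GOT1 (0.11, adjusted p = 0.168) and GLUL (0.04, 0.654) were then not called. With RVX-208 limma called none of the 15, against 6.28% of all genes. At an unadjusted p under 0.05, 2 passed, against 4987 of all 17845 genes.

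Among 23 other carriers of amino acids and peptides 5 rose and 4 fell with JQ1 (21.7% and 17.4%, against 10.7% and 12% of all genes). With housekeeping centring 1 rose and 11 fell, at a background of 47.2% of all genes called. The peptide carrier SLC15A2 rose by 0.76 ± 0.09, the lysosomal cysteine importer MFSD12 by 0.38 ± 0.06 and the lysosomal cystine exporter CTNS by 0.32 ± 0.08. The mitochondrial aspartate-glutamate carrier SLC25A12 fell by 0.64 ± 0.06, the vesicular GABA carrier SLC32A1 by 0.38 ± 0.11 and the lysosomal histidine and peptide carrier SLC15A4 by 0.27 ± 0.06. With RVX-208 the vesicular glutamate carrier SLC17A7 fell by 0.26 ± 0.06 (adjusted p = 0.0425), a call that was lost on leaving out any 1 of the 8 arrays (0.0512 to 0.142), with an intensity trend (0.0572) and after cyclic loess (log2 fold change -0.16, adjusted p = 0.113). Of 4 genes for proteins that act on amino acid carriers, 1 was called with JQ1, NEDD4L (25% against 22.8% of all genes). NEDD4L is a ubiquitin ligase that removes carriers and channels from the membrane, and it fell by 0.62 ± 0.05 (adjusted p = 1.154e-04).

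Single arrays decided some of these calls. With JQ1, the call was lost without replicate 1 for CTNS (adjusted p = 0.14), GOT1 (0.0703) and SLC15A4 (0.097), without replicate 2 for BCKDHB (0.0937), CHAC2 (0.0843) and PYCR1 (0.145), and without either for DBT (0.104 and 0.122). GLUL kept its call only without DMSO replicate 3, and NAGS only without DMSO replicate 1 or RVX-208 replicate 1. SLC32A1 kept its call only without DMSO replicate 2 or RVX-208 replicate 3. After cyclic loess GLUL (0.0753), NAGS (0.0523) and SLC32A1 (0.0707) were not called with JQ1. Housekeeping centring cost the JQ1 calls of CTNS (0.163), MFSD12 (0.0576) and CHAC2 (0.0724). It also cost the RVX-208 calls of CDO1 (0.0618), SESN3 (0.0678), SRXN1 (0.122) and PCK2 (0.254). Every call of a listed gene named with RVX-208 was lost without RVX-208 replicate 3, at adjusted p from 0.0638 for SESN3 to 0.142 for SLC17A7, and each was also lost without at least 2 further arrays. PCK2 was lost without any of the 8 (0.0638 to 0.109).

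**Figure D3:**
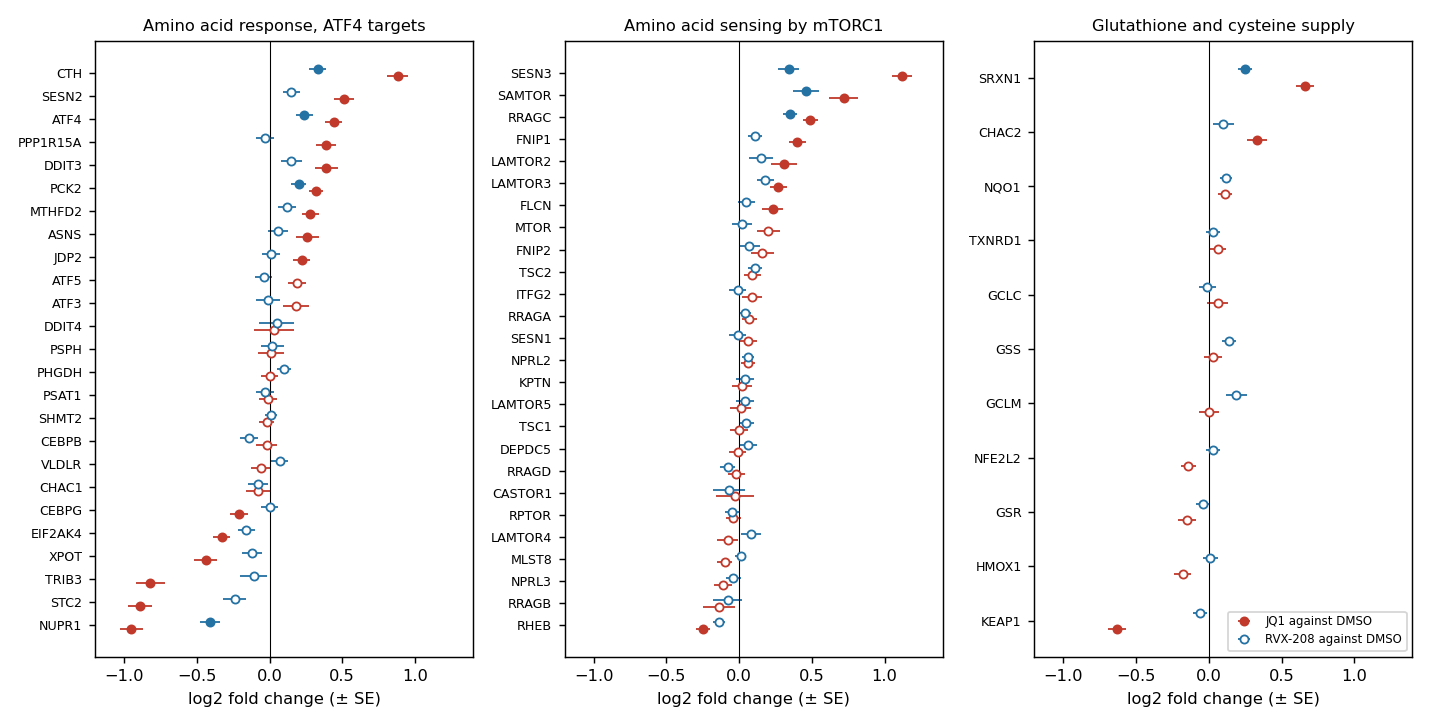
Log2 fold change against DMSO (x axis, ± SE) with JQ1 and RVX-208 of every tested gene of 3 lists: the amino acid response (25 genes), amino acid sensing by mTORC1 (26) and glutathione synthesis with cysteine supply (11). Filled points were called. The response list has called genes on both sides of 0 with JQ1, and in the mTORC1 list all calls but that of RHEB lie above 0.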

How the data were processed

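The authors deposited log2 values per probe set; per the submitters' processing notes these come from RMA, with R 2.15.3 and limma 3.14.4. The filter that led to 19816 probe sets is not given in the sources used here. A second table deposited by the authors holds log2 fold changes beside F scores and p-values: its fold changes equalled differences of group means within 0.0001 for all 58 genes, and 17 of 58 had an adjusted F p under 0.05 in the authors' deposited table, against 20.8% of all probe sets.

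Probe sets paired with 1 symbol (17859, against 997 with several and 960 with none) were reduced to 17845 genes by keeping the highest mean. A single limma 3.58.1 model in R 4.3.3 (lmFit, default eBayes, 8.55 degrees of freedom) over all 8 arrays gave the 3 two-sided comparisons, with Benjamini-Hochberg adjustment over all genes. Tables and plots used Python 3.11.15, pandas 2.3.3 and matplotlib 3.10.9. The number of arrays limits the precision. On simulated data with 17845 genes, of which 200 were changed, 4.87% of calls were false for JQ1 against DMSO. Changes of 0.3, 0.6 and 1 (log2) were recovered in 24.4%, 77% and 94.6% of cases. In the data themselves 4066 genes were called with JQ1, far more than were changed in the simulation. The adjusted threshold depends on that number, so these shares need not hold for the data.

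Named were all genes called in any comparison, those in the top quartile by signal, up to 3 rises and 3 falls per list, ATF4, HEXIM1 and MYC. SLC38A9, SLC38A11, SLC1A5, the dim genes named as not called and the intervals shown were chosen after their values were seen. The members and gene lists were chosen with earlier results of these data known. Listed genes not matched to a tested gene are not analysed here.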

Additional observations from a re-analysis of the deposited data

How the results depend on the processing

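With JQ1 against DMSO, 21 of the 58 genes were called. The count was 23 with an intensity trend and robust eBayes, 16 with only the arrays of both groups and 18 after cyclic loess. It was 41 after housekeeping centring (9 of 11 listed genes used), 20 of 39 with a minimum mean of 6, and 21 over all probe sets. Of all genes tested at these settings, 27.3%, 17.9%, 22.8%, 47.2%, 37.2% and 22.1% were called, against 22.8% in the main fit. With RVX-208 against DMSO, 4 were called, and the counts were 9, 4, 4, 24, 8 and 4 in the same order. The shares of all genes called were 13.2%, 4.24%, 5.07%, 21.9%, 16.6% and 5.3%, against 6.28% in the main fit. With JQ1 against RVX-208, 9 were called, and the counts were 13, 6, 8, 9, 10 and 9. The shares of all genes called were 16.4%, 9.25%, 11.5%, 11.3%, 21.5% and 10.5%, against 10.9% in the main fit. Housekeeping centring moved the split of that last comparison from 8 lower and 1 higher to 9 lower and 0 higher, and that of JQ1 against DMSO from 19 and 2 to 41 and 0. With RVX-208 it took the median of all genes from -0.023 to -0.129. Leaving out 1 DMSO or RVX-208 array gave 17 to 21 calls with JQ1, 0 to 3 with RVX-208 and 3 to 8 between the inhibitors. Fits without a JQ1 array leave 1 array in that group and are not counted here. For RVX-208 leaving out RVX-208 replicate 3 gave 0 and DMSO replicate 3 gave 2. Any of RVX-208 replicate 1, RVX-208 replicate 2 and DMSO replicate 2 gave 1. Between the inhibitors the count was 3 without RVX-208 replicate 2. With 1 DMSO or RVX-208 array left out, 18.6% to 21.2% of all genes were called with JQ1 and 0.291% to 3.95% with RVX-208. Between the inhibitors it was 6.53% to 11.1%. With the replicate number as a block the counts were 15, 1 and 4, of which 14, 0 and 4 were among the calls of the main fit. That block fit called 17.1%, 0.448% and 5.88% of all genes. Same-numbered arrays deviated from their group means with correlations from -0.15 to 0.0756. With so few arrays per group these correlations cannot show whether the numbers pair the samples, and the calls lost in the block fit remain a limit. No named gene that was called changed direction under any of these settings. The causes of these shifts were not tested. The 2 JQ1 arrays and the low signal of 19 of the genes limit what could be called.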
